A study of Homo sapiens with 18 samples.

Results

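The genes described are 8 genes of fatty acid uptake and handling, namely FABP4, FABP5, FABP6, CD36, SLC27A6, PPARG and PLIN2, with the estrogen sulfotransferase SULT1E1. They were taken by symbol from the 35933 genes with values, and all 8 were found. FABP4 and SULT1E1 were chosen by their normalized counts, which were much lower in the labelled METTL3 knockdown than in the control of MCF10CA1h, and SLC27A6 was chosen by the same difference in MCF10A, so these 3 differences are given as descriptions with no test. RNA sequencing covered 18 libraries, 3 (a, b and c) from each of 6 groups. MCF10A is an established human line of breast epithelium that became immortal on its own and forms no tumours, MCF10AT1 was made from it by stable expression of a mutated HRas, and MCF10CA1h came from MCF10AT1 by serial passage as xenografts in mice. Each of the 3 lines has a negative control CRISPR group and a group labelled METTL3 knockdown. Both were made by transient transfection of Cas9 with a guide, sorting of fluorescent cells and clonal selection. The METTL3 guide was aimed at exon 1 of METTL3, the methyltransferase that writes most N6-methyladenosine (m6A) in messenger RNA. All groups grew in the same medium with horse serum, insulin, hydrocortisone, cholera toxin and epidermal growth factor. The 3 libraries of a group came from 1 CRISPR line, so the spread between them leaves out differences between clones, and nothing in the labels says whether they were separate cultures. The p-values thus measure the spread between these libraries.

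Long-chain fatty acids enter cells with the help of membrane proteins such as the scavenger receptor CD36 and the fatty acid transport proteins of the SLC27 family, of which SLC27A6 is a member. Inside the cell they are carried by the small fatty acid binding proteins (FABPs). The nuclear receptor PPARG binds fatty acids and their derivatives, pairs with a retinoid X receptor (RXR) on DNA and is best known as the driver of adipocyte differentiation, with FABP4, CD36 and the lipid droplet coat protein PLIN2 among its target genes. FABP4 is abundant in adipocytes, macrophages and capillary endothelium, FABP5 in epidermis and other epithelia, and FABP6 is the bile acid binding protein of the ileum. SULT1E1 adds sulfate to estradiol and estrone, which keeps them from the estrogen receptor.

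The promoters of SULT1E1 and SLC27A6 are shown because these genes had the lowest values relative to control in MCF10CA1h and MCF10A, respectively, by the choice above. Each sequence covers the 250 bases before the annotated start (RefSeq, GRCh38.p14), 5′ to 3′ on the gene's strand, and capitals mark the motifs searched for.
SULT1E1, chr4:69860146-69860395, minus strand: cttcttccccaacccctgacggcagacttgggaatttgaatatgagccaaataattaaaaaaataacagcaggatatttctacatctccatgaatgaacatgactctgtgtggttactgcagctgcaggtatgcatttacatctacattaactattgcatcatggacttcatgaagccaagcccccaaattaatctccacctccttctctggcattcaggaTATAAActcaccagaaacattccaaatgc
SLC27A6, chr5:128965238-128965487, plus strand: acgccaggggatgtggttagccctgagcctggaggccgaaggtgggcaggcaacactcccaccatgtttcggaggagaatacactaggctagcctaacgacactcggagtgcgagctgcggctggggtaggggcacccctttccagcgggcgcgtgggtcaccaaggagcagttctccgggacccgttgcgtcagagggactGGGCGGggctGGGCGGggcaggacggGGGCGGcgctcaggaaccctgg
The letters in capitals are a TATA box (TATAAA) that begins 29 bases before the start of SULT1E1, and 3 GC boxes (GGGCGG) that begin 48, 38 and 22 bases before that of SLC27A6. Motifs were searched on both strands from 250 bases before to 50 after each of the 16 starts listed for 6 of the genes, CD36, FABP6, PLIN2, PPARG, SLC27A6 and SULT1E1. The TATA box was found at 7 of these starts (11.5% of all 35116 promoters of this length held it), the GC box at 2 (45.0%) and the CCAAT box at 2 (34.6%). The nuclear receptor half-site AGGTCA was found at 3 starts, all of PPARG (13.8% of all promoters), and 2 such half-sites with 1 base between them, the arrangement that PPARG and RXR bind, at 0 starts (0.0228% of all promoters). Of the PPARG starts, 2 lie close together and hold the same TATA box and the same half-site, each counted at both. The TATA box letters of CD36 began at positions -211 and -216 from its starts. These counts are thus not read against the shares of all promoters. A match is a description of letters and not a site of binding.

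All values below are normalized counts, in which the authors scaled the reads of each library to a common depth. The sum of a library was 21347352 to 31681834. The reads behind a value are unknown, so no counting error is given, and levels are not compared between genes, since the values are not per length. A pseudocount of 1 was added to the values, their log2 was taken and groups were compared with limma, after genes with a mean under 10 in the libraries fitted were set aside. A log2 difference is on that scale and understates the change of genes near 0, and an adjusted p (limma, Benjamini-Hochberg over all genes tested) under 0.05 was taken as the threshold. METTL3 RNA itself fell in the MCF10CA1h group labelled knockdown (1135 ± 132 to 804 ± 52.3, SD, n = 3, adjusted p = 0.0234), while its differences in MCF10A (log2 0.33, adjusted p = 0.618) and MCF10AT1 (log2 -0.17, adjusted p = 0.707) did not pass, so groups are named by their labels. By Western blot the paper reports less METTL3 protein in each line, with a substantial loss in MCF10AT1 and a moderate one in MCF10CA1h. Its real-time PCR of METTL3 RNA is reported to keep this relative decrease, with a smaller effect than on protein. Its m6A assay of total RNA gave a significant decrease in MCF10AT1 and MCF10CA1h and a non-significant one in MCF10A. These libraries give RNA only, so the loss of protein was not tested. In bulk RNA, fewer cells that express a gene and less RNA per cell cannot be told apart.

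The labelled cell type was checked against its markers. KRT5, a keratin of basal epithelium, lay between 36863 and 284806 in 15 libraries, and at 5540, 2771 and 824 in replicates a, b and c of the MCF10AT1 knockdown. CDH1, which encodes E-cadherin, was at 3475, 2105 and 6138 in the MCF10AT1 controls and at 11.6, 31.7 and 79.2 in those knockdown libraries. In MCF10AT1, 9 of 12 tested basal epithelial markers fell and 0 rose, and 6 of 12 luminal markers fell and 1 rose. Of the fibroblast and mesenchymal markers tested there, 6 of 9 rose, among them FN1 (log2 difference 10.08, adjusted p = 1.87e-05) and VIM, and their summed level was 3851 to 5173 in the controls and 125846 to 216077 in the knockdown. Over all genes tested in that line 7.07% rose and 5.96% fell. COL6A2, THY1 and COL3A1 were near 0 in the controls and were tested only because the knockdown libraries were high. The mesenchymal count is thus not read against that share. The MCF10AT1 knockdown libraries thus had little RNA of several defining epithelial genes, though not of the epithelial lists as a whole. The basal sum was 183682 to 280734 in the MCF10AT1 controls and 61345 to 182867 in the knockdown. The luminal sums, 97709 to 232655 and 61800 to 135563, overlapped. In MCF10CA1h, 7 of 12 basal markers rose, 2 of 10 luminal markers rose and 1 fell, and 3 of 10 mesenchymal markers rose and 1 fell. In MCF10A, 1 of 12 basal markers rose, and 0 of 11 luminal and 0 of 5 mesenchymal markers passed (limma, with 4 and 5 at an unadjusted p under 0.05). With the replicate block 2 basal markers rose and 4 fell in MCF10A, 1 luminal marker rose and 2 fell, and 2 mesenchymal markers fell.

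**Figure D1:**
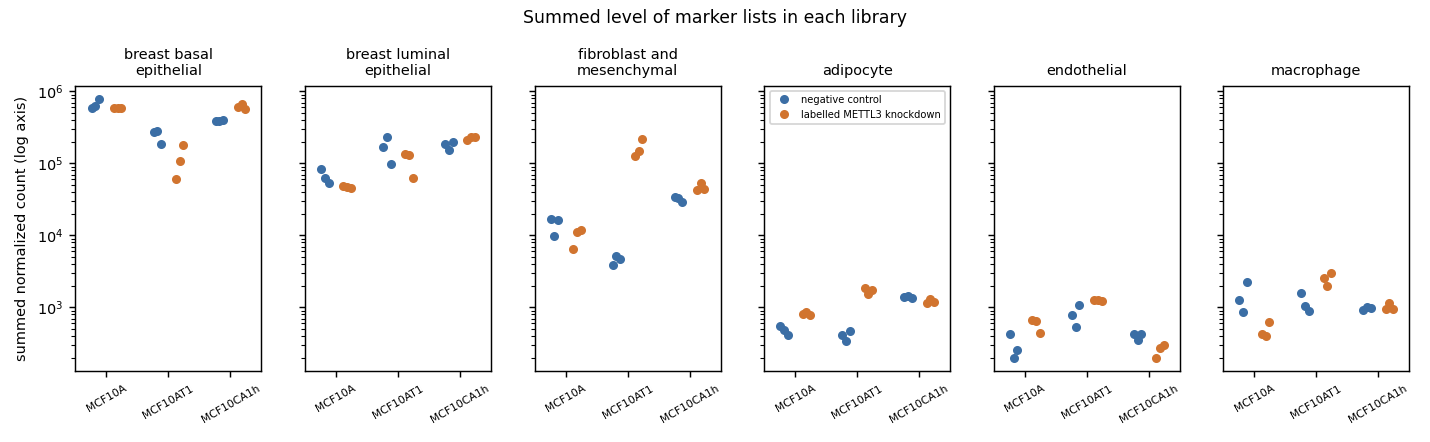
Summed normalized count (vertical log axis) of 6 lists of marker genes in each of the 18 libraries, by cell line, with blue points for negative control and orange points for labelled METTL3 knockdown libraries. In MCF10AT1 the mesenchymal sum was 3851 to 5173 in the controls and 125846 to 216077 in the knockdown, while the adipocyte sum was 344 to 475 and 1540 to 1857.

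Among the members not used for the choice, 2 of 5 tested passed the threshold in MCF10AT1, FABP4 and CD36, both higher in the labelled knockdown, where 13.0% of all 16050 genes tested passed (7.07% higher and 5.96% lower). Both were under the filter in the controls and were tested only because the knockdown libraries were high, so this count and its direction are not read against that share. In MCF10CA1h 2 of 5 passed, CD36 and FABP5, both lower, where 12.8% of 15127 genes did (7.91% higher and 4.85% lower). In MCF10A 0 of 4 passed by limma, against 2.65% of 15416 genes (1.16% higher and 1.49% lower), and 3 of the 4 had an unadjusted p under 0.05. With the replicate letter as a block, 1 of 4 members (PPARG) passed in MCF10A, where 7.6% of genes did, and 3 of 5 in MCF10AT1 (FABP5 besides FABP4 and CD36), where 24.5% did, while in MCF10CA1h the share was 12.4% and CD36 passed alone. In a joint fit of the 18 libraries 0 members passed in MCF10A (3.84% of 15897 genes), 6 passed in MCF10AT1 (32.4%) and 0 passed in MCF10CA1h (1.56%). The number of genes called also moved when 1 library was left out, from 409 to between 52 and 1418 in MCF10A, from 2091 to between 1020 and 2439 in MCF10AT1 and from 1929 to between 1089 and 1785 in MCF10CA1h. With so few members these shares say little about them as a group, and the genes are described one by one. In MCF10A FABP4, FABP6 and PLIN2 were below the filter, in MCF10AT1 FABP6, SLC27A6 and PLIN2, and in MCF10CA1h PLIN2.

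**Figure D2:**
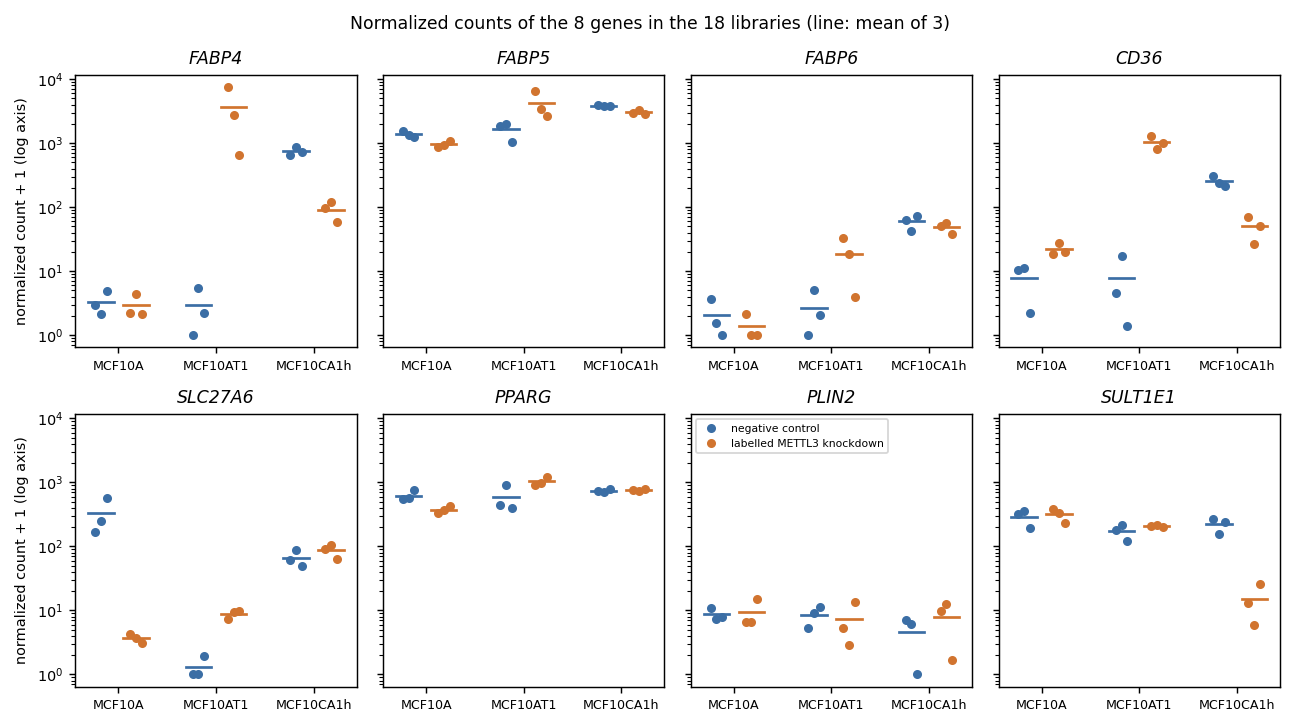
Normalized count plus 1 (vertical log axis) of the 8 genes in each of the 18 libraries, by cell line, with blue points for negative control and orange points for labelled METTL3 knockdown libraries and a line at the mean of the 3 libraries. FABP4 and CD36 were near 0 in the MCF10AT1 controls and at 647 to 7527 and 818 to 1301 in the MCF10AT1 knockdown, while both were lower in the knockdown than in the control of MCF10CA1h.

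FABP4 (ENSG00000170323), the FABP of adipocytes, had opposite differences in MCF10AT1 and MCF10CA1h. In the MCF10AT1 controls a, b and c it was at 0.00, 4.51 and 1.18, and in the labelled knockdown at 7527, 2705 and 647. The groups did not overlap, and the spread within the knockdown was wide, with a mean of 3626 ± 3531 (SD, n = 3) against 1.90 ± 2.34. The log2 difference was 10.01 (standard error 0.94, adjusted p = 0.000355), and it lay between 8.48 and 10.94 over the 15 alternatives with another setting or a library left out, all past the threshold. FABP4 passed the filter on low values in MCF10AT1 through the knockdown libraries alone.

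In MCF10CA1h FABP4 was at 659, 852 and 725 in the controls and at 96.2, 118 and 56.5 in the knockdown. All 3 knockdown libraries were below all controls, and the mean was 12.1% of the control, 745 ± 98.2 against 90.1 ± 31.1 (SD, n = 3). This log2 difference of -3.09 is the one FABP4 was chosen for. In MCF10A all 6 libraries lay between 1.12 and 3.86, with overlapping groups, and the gene was not tested. The order of the group means was thus the MCF10AT1 knockdown, the MCF10CA1h control, the MCF10CA1h knockdown and then the other 3 groups at 1.90 to 2.30. The first and the second of these overlapped, since the lowest MCF10AT1 knockdown library (647) was below the lowest MCF10CA1h control (659).

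FABP5 (ENSG00000164687), the epidermal FABP, was present in every library. In MCF10AT1 it was at 1831, 2014 and 1050 in the controls and at 6564, 3388 and 2600 in the knockdown. The groups did not overlap, and the log2 difference of 1.30 (standard error 0.41) missed the threshold without pairing (adjusted p = 0.0772) and passed it with the replicate letter as a block (adjusted p = 0.00432). In MCF10CA1h FABP5 was at 3945, 3737 and 3746 in the controls and at 2963, 3236 and 2814 in the knockdown. These groups did not overlap either, and the gene fell by 0.34 on the log2 scale (standard error 0.09, adjusted p = 0.033). That call is fragile, because it was lost when any of the 3 controls or knockdown replicate a or c of MCF10CA1h was left out (adjusted p of 0.0558 to 0.133 for FABP5) and in the joint fit of all libraries (adjusted p = 0.828). In MCF10A the values were 1553, 1344 and 1255 in the controls and 879, 930 and 1057 in the knockdown. The log2 difference there was -0.53 (standard error 0.16, adjusted p = 0.12), without overlap.

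FABP5 has processed pseudogenes close to it in sequence, and reads can be split between them and the gene. Of 15 such pseudogenes looked for, 6 had values and 1, FABP5P7, passed the filter. In MCF10AT1 FABP5P7 was at 392, 1250 and 444 in the controls and at 1816, 1235 and 1042 in the knockdown, and in MCF10CA1h at 1617, 1393 and 1347 and at 1493, 1171 and 1102. The FABP5P7 groups overlapped in both lines, and it did not pass the threshold in any line without pairing, while with the replicate block it passed in MCF10AT1 (adjusted p = 0.0397). The share of its values that belongs to FABP5 was not tested.

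FABP6 (ENSG00000170231, chr5:160187381-160238722 of GRCh38.p14), the ileal bile acid binding protein, was near 0 in MCF10A, between 0 and 2.72 in all 6 libraries. In MCF10AT1 it was at 0.00, 4.02 and 1.06 in the controls and at 32.02, 17.5 and 2.98 in the knockdown, where the groups overlapped and the gene was below the filter. MCF10CA1h held the highest levels, 62.9, 41.9 and 71.6 in the controls and 49.98, 55.01 and 37.3 in the knockdown. The log2 difference of FABP6 there was -0.29 (standard error 0.29, adjusted p = 0.578). Of the other genes of the FABP family, which include the retinoid carriers, 3 were tested in each line and 0 passed by limma (0, 0 and 1 at an unadjusted p under 0.05 in MCF10A, MCF10AT1 and MCF10CA1h).

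CD36 (ENSG00000135218, chr7:80602207-80679274), the fatty acid translocase, followed FABP4 in direction in MCF10AT1 and MCF10CA1h. In MCF10AT1 it was at 3.55, 16.5 and 0.37 in the controls and at 1301, 818 and 1001 in the knockdown. All knockdown libraries were far above all controls, with means of 1040 ± 244 against 6.79 ± 8.52 (SD, n = 3). The log2 difference was 7.74 (standard error 0.84, adjusted p = 0.000721) and lay between 6.69 and 8.68 over the 15 alternatives, all past the threshold. CD36 also passed the filter there through the knockdown libraries.

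In MCF10CA1h CD36 was at 305, 240 and 213 in the controls and at 69.9, 25.9 and 50.4 in the knockdown. The groups did not overlap, and the mean fell from 253 ± 47.3 to 48.7 ± 22.0 (SD, n = 3), 19.3% of the control. The log2 difference was -2.44 (standard error 0.33, adjusted p = 0.00127), and it passed in 14 of 15 alternatives, the exception being the joint fit of 18 libraries (adjusted p = 0.134). In MCF10A CD36 was at 9.36, 10.1 and 1.20 in the controls and at 17.3, 26.2 and 19.1 in the knockdown. The groups did not overlap at these low levels, and the difference did not pass (log2 1.77, standard error 0.68, adjusted p = 0.218).

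Markers of cells that normally hold FABP4 and CD36 were read beside these values. In MCF10AT1 the summed adipocyte markers were 344 to 475 in the controls and 1540 to 1857 in the knockdown, and 3 of 7 tested rose, the lipid droplet genes CIDEC, PLIN4 and PLIN1. CIDEC was tested only because the knockdown libraries were high. ADIPOQ and LEP, the adipocyte hormones, lay between 0 and 1.73 in all 6 libraries of that line. The endothelial markers summed to 528 to 1066 and 1237 to 1283, with 1 of 3 higher (EGFL7), and CDH5 was at 0 in the 3 knockdown libraries and at most 1.46 in the controls. The macrophage markers summed to 899 to 1600 and 2001 to 2972, with 0 of 3 past the threshold by limma and 2 at an unadjusted p under 0.05, and PTPRC was at 0 in all 6 libraries. The block made 1 macrophage marker pass as higher and 1 as lower in that line. The part of these shifts, and of the mesenchymal and epithelial shifts of the MCF10AT1 knockdown, in the rise of FABP4 and CD36 was not tested. Replicate a of the MCF10AT1 knockdown was the highest of its group for FABP4, FABP5, FABP6 and CD36, and the lowest for PPARG and SLC27A6. These differences between single libraries were not tested.

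In MCF10CA1h the adipocyte markers summed to 1347 to 1453 in the controls and 1141 to 1292 in the knockdown, and 0 of 3 passed by limma, with 1 at an unadjusted p under 0.05. The endothelial sum was 356 to 430 and 201 to 300, with PECAM1 lower (log2 difference -1.20, adjusted p = 0.0389) among 4 tested and VWF at no more than 1.27. The macrophage sum was 919 to 1017 and 942 to 1153, and of 4 tested CSF1R and CD68 rose and CD14 fell, with PTPRC at no more than 1.79. Their part in the lower FABP4 and CD36 of that line was not tested. In MCF10A 1 of 3 adipocyte markers rose (PLIN4), and 0 of 4 endothelial and 0 of 4 macrophage markers passed by limma, with 3 of each at an unadjusted p under 0.05. PECAM1 rose and CD68 fell in MCF10A with the replicate block.

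SLC27A6 (ENSG00000113396, chr5:128965488-129033635), fatty acid transport protein 6, was at 167, 245 and 569 in the MCF10A controls and at 3.20, 2.67 and 2.08 in the knockdown of that line. The groups were far apart, with means of 327 ± 213 and 2.65 ± 0.56 (SD, n = 3), or 0.81% of the control, and a log2 difference of -6.31 for which the gene was chosen. The knockdown values are close to the most frequent low value of those libraries, 0.81 to 1.23, so the size of this ratio is uncertain. In MCF10AT1 SLC27A6 was at 0.00, 0.00 and 0.93 in the controls and at 6.42, 8.32 and 8.61 in the knockdown, below the filter and not tested in that line. In MCF10CA1h it was at 60.9, 86.5 and 47.6 in the controls and at 89.3, 105 and 63.1 in the knockdown. The groups overlapped, and the log2 difference of 0.41 (standard error 0.29) did not pass (adjusted p = 0.402).

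PPARG (ENSG00000132170, chr3:12287368-12434344), the nuclear receptor, was at 545, 571 and 745 in the MCF10A controls and at 326, 373 and 421 in the knockdown. The groups did not overlap, and the log2 difference of -0.73 (standard error 0.20) missed the threshold without pairing (adjusted p = 0.0976) and passed it with the replicate letter as a block (adjusted p = 0.0413) or without control replicate a (adjusted p = 0.0454). In MCF10AT1 PPARG was at 435, 912 and 399 in the controls and at 906, 980 and 1226 in the knockdown. Control replicate b lay inside the range of the knockdown, and the log2 difference was 0.93 (standard error 0.37, adjusted p = 0.148). Without that library it was 1.30 (adjusted p = 0.0253), in the joint fit it kept its size with an adjusted p of 0.01, and with the block the adjusted p was 0.0511. In MCF10CA1h, the line in which FABP4 and CD36 were lower, PPARG was at 735, 701 and 795 in the controls and at 770, 734 and 788 in the knockdown, with a log2 difference of 0.04 (adjusted p = 0.841).

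PLIN2 (ENSG00000147872, chr9:19108388-19127492), which coats lipid droplets, was at 0 to 14.1 in all 18 libraries and below the filter in every fit with a filter, so it carries no comparison. PLIN2 is usually well expressed in epithelial lines, so it is uncertain whether these values give its level, and how the reads of its transcripts were summed to the gene was not tested. The related PLIN3 was at 2146 to 6909 in the same libraries.

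SULT1E1 (ENSG00000109193, chr4:69821122-69860145) was at 120 to 385 in all 15 libraries outside the MCF10CA1h knockdown. In the MCF10CA1h controls it was at 267, 153 and 236, and in the knockdown at 11.8, 4.97 and 24.6. The groups were far apart, with means of 219 ± 59.0 and 13.8 ± 9.98 (SD, n = 3), or 6.31% of the control, and this log2 difference of -4.10 is what the gene was chosen for. In MCF10A SULT1E1 was at 316, 353 and 195 in the controls and at 385, 329 and 229 in the knockdown (log2 difference 0.14, standard error 0.29, adjusted p = 0.857). In MCF10AT1 it was at 178, 213 and 120 and at 207, 212 and 203 (log2 difference 0.32, standard error 0.35, adjusted p = 0.593). The groups overlapped in both of these lines.

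**Figure D3:**
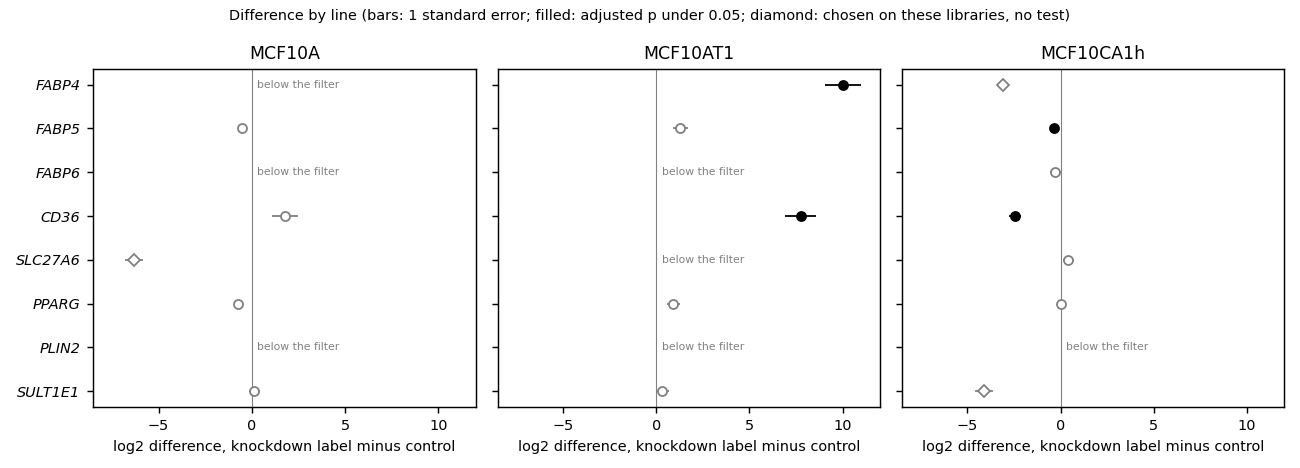
Log2 difference of each gene (horizontal axis, labelled METTL3 knockdown minus negative control on the log2 scale of normalized count plus 1) in the 3 lines, with bars of 1 standard error, filled points for an adjusted p under 0.05 and diamonds for the 3 differences that chose the gene. FABP4 (10.01) and CD36 (7.74) were higher in the MCF10AT1 knockdown, and CD36 (-2.44) and FABP4 (-3.09) lower in that of MCF10CA1h.

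The difference between lines was tested as an interaction in 1 fit of the 18 libraries. FABP4, CD36, FABP6 and SLC27A6 entered that fit through the groups in which they were high. The counts of members in these interaction tests are thus not read against the shares of all genes. Between MCF10AT1 and MCF10A 5 of 6 tested members passed, where 21.6% of 15897 genes did. The effect in MCF10AT1 was higher than that in MCF10A by a log2 of 10.19 for FABP4 (adjusted p = 2.33e-06), 5.98 for CD36 (adjusted p = 0.000529), 1.83 for FABP5 (adjusted p = 0.00281), 1.65 for PPARG (adjusted p = 0.00312) and 3.11 for FABP6 (adjusted p = 0.0483). The last of these rests on values near 0 and passed in 7 of 25 alternatives, and in 4 of the 18 that left out a library, with adjusted p of 0.00643 to 0.121. For SULT1E1 the difference between effects was 0.19 (adjusted p = 0.857).

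Between MCF10CA1h and MCF10AT1 3 of 5 tested members passed, where 18.2% of all genes did. The effect was lower in MCF10CA1h by a log2 difference of -10.19 for CD36 (adjusted p = 2.63e-06), -1.64 for FABP5 (adjusted p = 0.0072) and -2.40 for SLC27A6 (adjusted p = 0.0156, and 0.277 with a pseudocount of 5). The SLC27A6 difference rests on values near 0 in MCF10AT1. PPARG, at -0.89, did not pass (adjusted p = 0.101), except without control replicate b of MCF10AT1 (adjusted p = 0.00189). Between MCF10CA1h and MCF10A 1 of 4 passed, CD36 at -4.21 (adjusted p = 0.0256), where 5.34% of all genes did. That call for CD36 was lost in 8 of 18 fits with a library left out (control replicate c and knockdown replicates a and b of MCF10A, and control replicates a, b and c and knockdown replicates b and c of MCF10CA1h), with adjusted p of 0.0502 to 0.0809.

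A separate fit of the 9 negative control libraries compared the lines with each other. The members FABP4, FABP6 and CD36 had means of 1.09 to 6.89 in the controls of MCF10A and MCF10AT1 and entered this fit only through the higher MCF10CA1h controls, so the counts of members are not read against the shares of all genes. From MCF10A to MCF10AT1 0 of 6 tested members passed by limma, and 0 had an unadjusted p under 0.05 (28.1% of 15652 genes passed). The other 3 were FABP5, PPARG and SULT1E1. The largest of these differences was that of SULT1E1, from 288 ± 82.4 to 170 ± 47.1 (SD, n = 3, log2 -0.75, adjusted p = 0.116). From MCF10A to MCF10CA1h 3 of 4 passed (37.8% of genes did), all of them higher in MCF10CA1h, and 2 of the 3, CD36 and FABP6, had been admitted by those high controls. CD36 was higher by a log2 of 5.31 (adjusted p = 0.00235), FABP6 by 5.02 (adjusted p = 0.00126) and FABP5 by 1.47 (adjusted p = 0.00207), while PPARG differed by 0.27 (adjusted p = 0.511). From MCF10AT1 to MCF10CA1h 4 of 5 passed (21.8% of genes did), again with CD36 and FABP6 among them. CD36 was again higher, by 5.72 (adjusted p = 0.00273), FABP6 by 4.74 (adjusted p = 0.00266), FABP5 by 1.28 (adjusted p = 0.00658) and SLC27A6 by 5.69 (adjusted p = 0.000185). The comparisons share control libraries and are not independent of each other.

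By their control libraries, FABP4, CD36 and FABP6 were thus near 0 in MCF10A and MCF10AT1 and present in MCF10CA1h. FABP4, whose MCF10CA1h controls are part of what chose it, was higher there by log2 differences of 7.90 over MCF10A and 8.34 over MCF10AT1, given with no test. SLC27A6 had another order of control means, 327 ± 213 in MCF10A, 65.0 ± 19.8 in MCF10CA1h and 0.31 ± 0.54 in MCF10AT1 (SD, n = 3). SULT1E1 was of like level in all 3, and its libraries overlapped between every pair of lines.

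The genes around these members in the pathway were counted with the 8 members left out. Of all genes tested, 1.16% rose and 1.49% fell in MCF10A. In MCF10AT1 the shares were 7.07% and 5.96%, and in MCF10CA1h 7.91% and 4.85%. With the replicate block 7.6%, 24.5% and 12.4% of genes passed in MCF10A, MCF10AT1 and MCF10CA1h. The lists are small, so their counts are given beside these shares as descriptions. Many single calls depended on 1 library. Of the pathway and marker genes called, 10 of 11 in MCF10A (all but PPARGC1A), 12 of 40 in MCF10AT1 and 19 of 41 in MCF10CA1h missed the threshold in at least 1 fit with a library left out. Among those named here they were VLDLR, SLC27A2, RXRB, PPARGC1B, AQP3, PLIN1, PLIN3, ABCC1 and EGFL7 in MCF10AT1, and ACSL4, SLC27A2, CEBPD, CPT1A, PAPSS2, SULT1B1, PECAM1, CD14, CD68 and COL3A1 in MCF10CA1h. Of the other genes of fatty acid uptake and activation, 3 of 15 tested rose in MCF10A and 0 fell, with a median log2 difference of 0.02 against -0.0035 over all genes tested. These were SLC27A1, fatty acid transport protein 1 (log2 difference 1.92, adjusted p = 0.0154), ACSL4, an acyl-CoA synthetase for arachidonic acid (1.34, adjusted p = 0.0139), and MFSD2A, a transporter of lysolipids (1.11, adjusted p = 0.0442). In MCF10AT1 2 of 16 rose and 1 fell, with a median of 0.28 against 0.02. The lipoprotein receptors VLDLR (2.33, adjusted p = 0.0252) and SCARB1 (1.93, adjusted p = 0.00443) rose, and SLC27A2 (-1.94, adjusted p = 0.023) fell. In MCF10CA1h 2 of 17 rose and 3 fell, with a median of -0.13 against -0.02, and SLC27A2 (-0.80, adjusted p = 0.022), ACSL4 (-0.67, adjusted p = 0.0177) and SLC27A4 (-0.63, adjusted p = 0.00749) were the 3 that fell. ACSL4 thus rose in MCF10A and fell in MCF10CA1h, each by its own test. In MCF10AT1 6 of 16 genes of this list rose and 1 fell with the replicate block.

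Of the PPAR and RXR factors other than PPARG, 2 of 14 rose and 1 fell in MCF10A. The coactivator PPARGC1A rose from 66.7 ± 32.2 to 698 ± 33.5 (SD, n = 3, log2 3.50, adjusted p = 0.00803) and PPARGC1B by a log2 of 1.15 (adjusted p = 0.0316), while PPARD, the related fatty acid receptor, fell from 2390 ± 1094 to 563 ± 34.8 (log2 -1.99, adjusted p = 0.0163). In MCF10CA1h 0 of 14 rose and 3 fell, namely PPARGC1A (-1.91, adjusted p = 0.00744), RXRA, the partner of PPARG (-0.55, adjusted p = 0.00347), and CEBPD (-0.62, adjusted p = 0.0361). In MCF10AT1 RXRB rose (0.98, adjusted p = 0.0436) and PPARGC1B fell (-1.62, adjusted p = 0.0477) among 14 tested. In that line 3 rose and 3 fell with the replicate block. The medians were 0.24, 0.11 and -0.21 in MCF10A, MCF10AT1 and MCF10CA1h, against -0.0035, 0.02 and -0.02 over all genes.

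Of 21 PPAR target genes other than the members tested in MCF10AT1, 0 rose past the threshold by limma and 1 fell, the glycerol channel AQP3 (log2 difference -4.65, adjusted p = 0.0112), and 7 had an unadjusted p under 0.05. In MCF10CA1h 6 of 21 fell and 1 rose, where 4.85% of all genes fell and 7.91% rose. Those that fell included PDK4, which holds back pyruvate oxidation (127.9 ± 31.1 to 33.7 ± 3.93, SD, n = 3, log2 -1.87, adjusted p = 0.00164) and CPT1A, which admits fatty acids to mitochondria. ANGPTL4, the lipoprotein lipase inhibitor, rose from 4178 ± 478 to 10121 ± 1624 (log2 1.27, adjusted p = 0.000249). In MCF10A 0 of 20 passed by limma, and 7 had an unadjusted p under 0.05. With the replicate block 1 rose and 3 fell in MCF10AT1, and 2 rose and 1 fell in MCF10A. The medians of this list were 0.12, -0.02 and -0.19 in MCF10A, MCF10AT1 and MCF10CA1h.

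**Figure D4:**
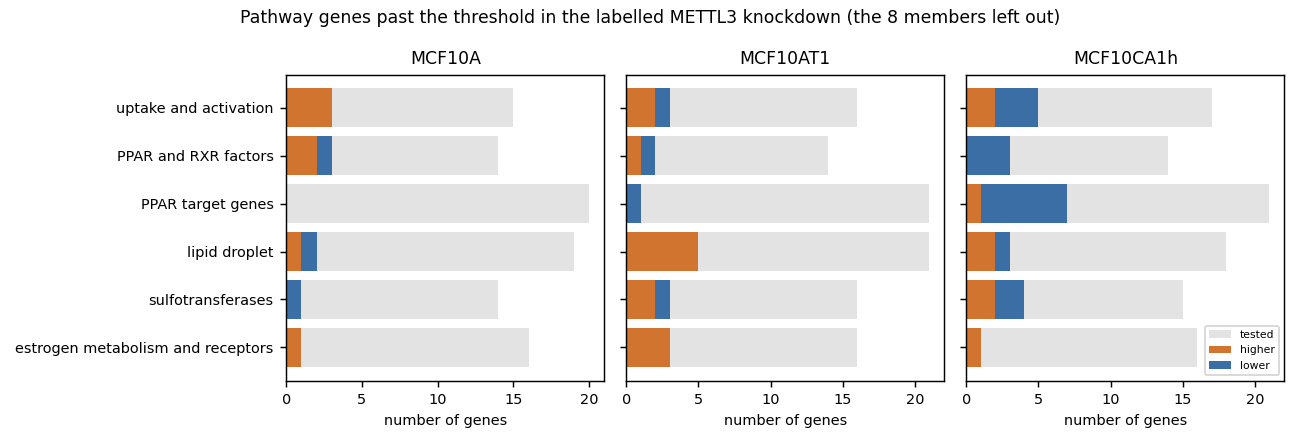
Number of genes (horizontal axis) of 6 pathway lists that were tested (grey, whole bar) and that were higher (orange) or lower (blue) past the threshold in the labelled METTL3 knockdown of each line, with the 8 members left out. In MCF10AT1 5 of 21 lipid droplet genes rose and 0 fell, and in MCF10CA1h 6 of 21 PPAR target genes fell and 1 rose. Over all genes tested 7.07% rose and 5.96% fell in MCF10AT1, and 7.91% rose and 4.85% fell in MCF10CA1h.

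Of 21 lipid droplet genes tested in MCF10AT1 5 rose and 0 fell, with a median log2 difference of 0.16 against 0.02 over all genes. Over all genes tested in that line 7.07% rose and 5.96% fell. CIDEC, which fuses droplets and is typical of fat cells, went from 1.96 ± 0.57 to 154 ± 23.2 (SD, n = 3, log2 5.72, adjusted p = 0.000309). It passed the filter only through the knockdown libraries, so the count is not read against those shares. PLIN4 rose by 3.97 (adjusted p = 0.00284) and PLIN1, the coat protein of adipocyte droplets, by 2.71 (adjusted p = 0.0263), the latter with 1 library far above the others (171, 49.5 and 47.8). The others were the lipase PNPLA2 and PLIN3. CIDEC, PLIN4 and PLIN1 are also on the list of adipocyte markers. In MCF10A 1 of 19 rose, PLIN4 (1.70, adjusted p = 0.0304), and 1 fell, the monoglyceride lipase MGLL (-1.30, adjusted p = 0.0457). In MCF10CA1h MGLL (1.46, adjusted p = 0.000297) and PLIN3 (0.51, adjusted p = 0.0124) rose and CIDEB (-3.20, adjusted p = 0.00333) fell among 18 tested. With the replicate block 7 rose and 2 fell in MCF10AT1, and 2 rose and 2 fell in MCF10A. The medians were -0.12 in MCF10A and -0.09 in MCF10CA1h.

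Around SULT1E1, the other sulfotransferases and their cofactor genes moved in both directions. In MCF10CA1h 2 of 15 rose and 2 fell, with a median of -0.10. SULT1B1, a thyroid hormone sulfotransferase, fell (-1.68, adjusted p = 0.0446), PAPSS2, which makes the sulfate donor, rose (1.73, adjusted p = 0.038), and SUMF1, which activates sulfatases, fell (-0.93, adjusted p = 0.00456). Replicate b stood far above the others for PAPSS2, with 141, 524 and 122 in the knockdown against 60.4, 80.3 and 49.2 in the controls, and without it or any of the controls the call was lost (adjusted p up to 0.105). In MCF10AT1 2 of 16 rose and 1 fell, with a median of 0.28. SULT1B1 went from 3.39, 0.00 and 27.4 in the controls to 452, 198 and 350 in the knockdown (log2 5.98, adjusted p = 0.00868), SULT1C2 rose by 5.95 (adjusted p = 0.00123), and SULT2B1, the cholesterol sulfotransferase, fell by 4.21 on the log2 scale (adjusted p = 0.00322). With a control mean of 2.20, SULT1C2 passed the filter only through the knockdown libraries. SULT2B1 was also the 1 gene of 14 to pass in MCF10A (-3.15, adjusted p = 0.0399, list median 0.07), where 2 fell with the replicate block.

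Among the genes of estrogen metabolism and reception, 1 of 16 rose in MCF10CA1h, HSD17B2, which oxidizes estradiol to estrone (log2 difference 1.69, adjusted p = 0.000459), and 0 fell. HSD17B1, which does the reverse, rose in MCF10AT1 (2.39, adjusted p = 0.0033) with the transporters SLCO4A1 (1.87, adjusted p = 0.00399) and ABCC1 (0.98, adjusted p = 0.028), 3 of 16 with 0 lower. CYP1B1, which hydroxylates estradiol, was the 1 of 16 that rose in MCF10A (1.54, adjusted p = 0.0248). With the replicate block 4 rose and 2 fell in MCF10AT1, and 3 rose and 1 fell in MCF10A. The medians were 0.22, -0.33 and -0.03 in MCF10A, MCF10AT1 and MCF10CA1h. ESR1, the estrogen receptor, was at 0 to 3.37 in the MCF10CA1h libraries and at most 26.6 in any library. Of the few other genes of bile acid handling, the field of FABP6, 2, 3 and 1 were tested in MCF10A, MCF10AT1 and MCF10CA1h, and 0 passed by limma, with 0 at an unadjusted p under 0.05.

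The genes with the pattern most like that of a member were found by Pearson correlation of log2 values over the 18 libraries among 15897 genes, as a description. Nearest to FABP4 were COL3A1 (r = 0.97), GLIS1 (0.96), UCHL1 (0.96), BMP7 (0.96) and THY1-AS1 (0.96). COL3A1, a fibrillar collagen, was at 0.00, 0.00 and 2.25 in the MCF10AT1 controls and 1208, 840 and 385 in the knockdown. In MCF10CA1h its log2 difference was -1.22, given here with no test because the gene was picked by its likeness to FABP4. Nearest to SULT1E1 were ZNF311 (r = 0.94), NIPBL (0.86), CROCCP2 (0.86), PELI2 (0.85) and SLC25A25-AS1 (0.84), and to SLC27A6 PPP2R2C (0.90), ACTG1 (0.90), TIMP3 (0.90), FAP (0.90) and CYTH1 (0.89). The 18 points fall into 6 groups that share lines and clones, so these values largely reflect group means. After the mean of each line was taken off, 1, 1 and 0 of the 5 genes stayed among the nearest for FABP4, SULT1E1 and SLC27A6.

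Last, the genes that flank the members were read, up to 3 with values on each side. SULT1B1, which lies near SULT1E1 on chromosome 4, fell in MCF10CA1h, where SULT1E1 was lower too, and rose in MCF10AT1, where SULT1E1 did not pass. FBN2, the neighbour of SLC27A6 on chromosome 5, encodes a fibrillin and rose in MCF10AT1 (16.0 ± 11.9 to 474 ± 223, SD, n = 3, log2 4.94, adjusted p = 0.00126), and its difference in MCF10A was 0.61 (adjusted p = 0.213). The gene on the other side, ISOC1, did not pass in any line. SEMA3C, which follows CD36 on chromosome 7, rose in MCF10A (log2 1.84, adjusted p = 0.00803), while in MCF10AT1 its adjusted p was 0.992. In all, 1 of 18 tested flanking genes passed in MCF10A, 2 of 19 in MCF10AT1 and 4 of 18 in MCF10CA1h, with CCNJL and RPS6 among those of MCF10CA1h. These shares can be read beside the 2.65%, 13.0% and 12.8% of all genes.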

How the data were processed

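RNA of 18 libraries, 3 in each of 6 groups, was analysed. Per the labels, the libraries were stranded, ribosomal RNA-depleted total RNA, while the molecule field names polyA RNA, and the conflict was left unsettled. Reads were pseudo-aligned by the authors to hg38 transcripts with kallisto 0.46.1, summed to genes and normalized with DESeq2 1.26.0 in R 4.1.1. The deposited values are this normalized count, a signal that is neither reads nor per length. Whole reads could not be recovered (26.7% to 50.2% of low values lay within 0.05 steps of a whole multiple), so no count test was run. Of 60579 rows, 24646 had no values. For 294 genes whose symbol another gene holds, the gene with the higher values stood for the symbol.

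Here limma 3.58.1 (lmFit, eBayes with trend, R 4.3.3) was run on log2-transformed values with a pseudocount of 1, leaving out genes with a mean under 10, with each line fitted alone, the 9 controls in 1 fit, and interactions in a fit of all 18 libraries. p-values are two-sided. The limma step was tested on simulated counts with the same spread setting for all genes, where only genes with a control mean of at least 50 were changed. Genes near 0 in the controls and effects of letter or clone were not covered by it. Other values came from Python 3.11.15, pandas 2.3.3, NumPy 2.4.6 and matplotlib 3.10.9. Depth per gene is unknown, and 3 libraries per group limit the precision. Alternatives were pseudocounts of 0.5 and 5, no filter, a filter of 50, no trend, 2 other scalings, the replicate block, a joint fit, an adjusted p of 0.01 and each library left out.

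Deviations of libraries with the same letter from their group means correlated over 15897 genes by r = 0.22, 0.20 and 0.12 in MCF10A and 0.11, 0.29 and 0.48 in MCF10AT1, so the letters were taken to pair libraries there, and not in MCF10CA1h (-0.01, 0.02 and 0.05) or between the controls of different lines (-0.27 to 0.28). The pairing is read from the data, since the labels do not explain the letters. Between the controls of MCF10AT1 and MCF10A r was 0.28 for a, -0.25 for b and 0.26 for c. The size of r alone thus does not separate paired from unpaired libraries. Calls made only with the replicate block rest on this uncertain pairing.

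The 8 members, the gene lists and the tests were chosen with earlier results of these data known. Named genes are the members, METTL3, up to 3 called genes of each list and line with the largest change, the 5 genes most like FABP4, SULT1E1 and SLC27A6, 3 flanking genes a side and FABP5 pseudogenes. CPT1A, VIM, CDH1, PNPLA2, ESR1, ADIPOQ, LEP, CDH5, VWF and PTPRC are named outside that rule, after their values were seen. Promoters came from RefSeq.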

Additional observations from a re-analysis of the deposited data

Results flagged for a closer look

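In 11 cases the difference between the labelled METTL3 knockdown and the control of a gene differed between 2 lines, and the values are log2 differences of these effects. Between MCF10AT1 and MCF10A the interaction test of limma put the effect higher in MCF10AT1 for FABP4 (10.19), CD36 (5.98), FABP6 (3.11), FABP5 (1.83) and PPARG (1.65). The difference for FABP6 rests on values near 0, and its call was kept in 7 of 25 alternatives. For SLC27A6, whose 3 knockdown libraries were all lower than the controls in MCF10A and all higher in MCF10AT1, the difference of 9.12 was not tested, because the gene was chosen on the MCF10A libraries.

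Between MCF10CA1h and MCF10AT1 the effect was lower in MCF10CA1h for CD36 (-10.19), SLC27A6 (-2.40) and FABP5 (-1.64). FABP4 was higher in all 3 knockdown libraries of MCF10AT1 and lower in all 3 of MCF10CA1h, and the difference of -13.10 was not tested, because the gene was chosen on the MCF10CA1h libraries. Between MCF10CA1h and MCF10A the effect on CD36 was lower in MCF10CA1h (-4.21), a call that 8 of 18 fits with a library left out did not keep.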

How the results depend on the processing

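No log2 difference past the threshold changed its sign under any alternative. The count of members past the threshold in MCF10A was 0 and became 1 with the replicate block, and it was 0 to 1 with a library left out (without control replicate a). In MCF10AT1 it was 2 and became 6 in the joint fit of 18 libraries, which tests FABP6 and SLC27A6 as well and calls 32.4% of all genes in that line, against 13.0%. In MCF10CA1h it was 2 and became 1 at an adjusted p of 0.01, without a filter, without the intensity trend and with the replicate block, 0 in the joint fit (which calls 1.56% of all genes there, against 12.8%) and 1 to 2 with a library left out. FABP5 was lost in each of these settings except without knockdown replicate b of MCF10CA1h, and CD36 in the joint fit as well, and FABP5 had an adjusted p of 0.0643 without a filter, 0.108 without the trend and 0.0623 with the block, in a line whose letters did not pair. For the controls of MCF10AT1 against MCF10A it was 0 to 1 with a library left out. The interaction of MCF10CA1h with MCF10A (1) became 0 at an adjusted p of 0.01 and was 0 to 1 with a library left out, and that of MCF10CA1h with MCF10AT1 (3) was 3 to 5, the latter without control replicate b of MCF10AT1. The cause of these changes was not tested, apart from the stricter threshold and the added genes. The block changed no other call of a member beyond FABP5 in MCF10AT1 and MCF10CA1h and PPARG in MCF10A.

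Scaling every library to an equal sum moved the median of all genes by more than 0.1 in MCF10AT1 (from 0.02 to -0.15 on the log2 scale), in the controls of MCF10AT1 against MCF10A (from -0.01 to -0.15) and of MCF10CA1h against MCF10AT1 (from 0.05 to 0.16), and in the interactions of MCF10AT1 (from -0.0045 to -0.26) and MCF10CA1h (from -0.03 to -0.17) with MCF10A and of MCF10CA1h with MCF10AT1 (from -0.01 to 0.0962). With that scaling the call for FABP6 between MCF10AT1 and MCF10A was lost (adjusted p = 0.0533). Over single genes 1149 alternative values kept their side, 41 lost the threshold, 11 passed it newly and 12 untested values moved. The log2 differences of FABP4 and SLC27A6 against groups near 0 depend on the pseudocount.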
